A study of Mus musculus with 12 samples.

Results

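The caspases and the apoptosome were examined here as 8 genes chosen by name: the initiator caspases Casp2, Casp8 and Casp9, the effector-type caspase Casp6, the scaffold Apaf1, its ligand cytochrome c (Cycs), the inhibitor Xiap, and Diablo, which counters that inhibitor. Rows whose gene symbol equalled a member were read from both count tables of the series, and 7 of the 8 members were found in each, among 50433 genes in the table of tubular cells and 50434 in the table of neutrophils. Xiap was not analysed here.

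Wild-type adult male mice (C57BL/6J) of every group underwent renal ischemia-reperfusion injury (IRI) by clamping of both renal pedicles, and by their labels the groups differed in treatment. Treated mice received intravenous alanyl-glutamine after reperfusion, called glutamine here, and the others received saline, called vehicle. Renal tubular epithelial cells (TECs) were sorted from the kidney as CD45- Prominin-1+ cells, and neutrophils (PMN) were isolated from the blood, both 24 h after IRI. Each cell type had 3 vehicle libraries, named replicates 3, 4 and 5 in TECs and 1, 2 and 3 in PMN, and 3 glutamine libraries, named 1, 2 and 3. The labels do not say whether the libraries came from separate mice, so the p-values measure the spread between libraries. No sham libraries were analysed here, and the comparison is therefore between 2 injured groups.

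Caspases are cysteine proteases that are made as inactive precursors. In the mitochondrial route to apoptosis, cytochrome c leaves the mitochondria and binds Apaf1, which assembles into the apoptosome and activates caspase-9. Caspase-8 is activated at death receptors and caspase-2 on a platform called the PIDDosome, and caspase-6 cleaves lamins among other substrates. Xiap blocks caspase-9 and effector caspases, and Diablo, also called Smac, leaves the mitochondria with cytochrome c and displaces Xiap. In the kidney, tubular cells undergo this form of death after ischemia. These steps depend on cleavage and release of proteins, and the measurements below are of mRNA.

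Short segments that carry the function of 6 members are shown here as coding sequence of the GENCODE M21 annotation on GRCm38, 5′ to 3′ on the coding strand. In the 4 caspases the capitals mark the codon of the catalytic cysteine. Windows that span an exon junction are printed spliced, and their coordinates include the intron.
Casp2: ttcatccaagcaTGTcgtggagatgagaca
Casp6: atcatccaggccTGTcggggtagccagcat
Casp8: ttcattcaggctTGCcaaggaagtaacttc
Casp9: ttcatccaggccTGCggtggtgagcagaaa
The Casp2 window lies at chr6:42276764-42279784 across exons 8 and 9, and its capitals are codon 320 of 452. That of Casp6 is at chr3:129910690-129912138 across exons 5 and 6, with the cysteine at codon 146 of 276. The Casp8 window is inside exon 9, at chr1:58844607-58844636, with the cysteine at codon 382 of 500. In Casp9 the window runs over exons 6 and 7, at chr4:141807241-141811546, with the cysteine at codon 325 of 454. All 4 are on the + strand. Between pairs of caspases, 16 to 22 of the 30 bases were identical, fewest for Casp8 with Casp9 and most for Casp2 with Casp9, and no sequence of 50 bases, the length of a read, was shared among these 4 genes.

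Cytochrome c and Diablo act through other short segments. In Cycs the capitals mark the codons that bind the heme, starting at codon 15 of 105 in exon 2, at chr6:50565595-50565624 on the - strand. In Diablo they mark the codons of the segment that fits into the groove of IAP proteins once the import sequence is removed, starting at codon 54 of 237 across exons 2 and 3, at chr5:123520170-123523281 on the - strand.
Cycs: cagaagTGTGCCCAGTGCCACactgtggaa
Diablo: acactgtgtGCGGTTCCTATTgctcagaaa

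How well a count belongs to 1 gene differed between members. Of the sequences of 50 bases in the transcripts of Cycs, 26.1% also occur in other annotated genes, above all in the predicted gene Gm10053, with 847 such sequences. For Diablo the share was 37.3%, mostly with its neighbour B3gnt4 (1231 sequences) and the predicted gene Gm49027 (1100 sequences). The share was 4.37% for Casp8, with Gm20257, and below 1% for Apaf1, Casp2, Casp6 and Casp9. Counts of Cycs and Diablo therefore depend on how the authors' tool divided shared reads.

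The TEC libraries held 5397445 to 10223546 estimated counts, glutamine replicate 2 being the shallowest, and the PMN libraries held 20225151 to 21878357. In TECs, Prom1, which encodes the sorted antigen, was at 64.6 to 83.5 counts scaled to library size (CPM). Ptprc, which encodes CD45, was at 0.102 to 1.52 CPM with vehicle and 1.81 to 2.74 CPM with glutamine. The 6 proximal tubule markers summed to 2153 to 3664 CPM with vehicle and 2964 to 4203 CPM with glutamine, and the 3 markers of the thick ascending limb to 1037 to 2034 and 1283 to 2264 CPM, so RNA of both segments was present. The share of counts in predicted genes was 17.5 to 23.3% with vehicle and 26.4 to 30.8% with glutamine. Markers of other cells were also present in TECs, summed to 199 to 327 CPM for endothelium, 101 to 250 CPM for neutrophils and 306 to 2580 CPM for erythroid cells. Those of macrophages and dendritic cells summed to 32.8 to 54.3 CPM with vehicle and 36.8 to 92.4 CPM with glutamine. The part of these cells in the results was not tested. In PMN, the 7 neutrophil markers summed to 20728 to 69918 CPM, the macrophage and dendritic cell markers to 5232 to 9544 CPM and the platelet markers to 471 to 1052 CPM. In addition, 2 vehicle libraries stood apart by markers of kidney or vessel. Vehicle replicate 1 had 1025 CPM of Umod (thick ascending limb), against at most 33.4 CPM in the other PMN libraries, and vehicle replicate 2 had 619 CPM of the endothelial gene Kdr, which was at 0 in the other PMN libraries. For the tested PMN members, values without each of these 2 vehicle libraries are given with the result. Glutamine replicate 3 had the lowest S100a8 (neutrophil) of the PMN libraries, at 6607 CPM against 12595 to 28925 CPM in the others. It also had the highest Ptprc, at 1150 CPM. The part of these differences in the results was not tested.

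In TECs, no member passed the test of glutamine against vehicle, and their fold changes were small. Of the members, 0 of 7 had an adjusted p below 0.05 in edgeR's quasi-likelihood test, 0 of 7 had an unadjusted p below 0.05, and the smallest unadjusted p was 0.223, for Cycs. DESeq2 and limma also called 0 members. Over all 14734 tested genes, edgeR called 0.0% at an adjusted p below 0.05, limma 0.0% and DESeq2 1.93% of the 12738 genes it gave an adjusted p. An unadjusted p below 0.05 was reached by 12.7% of all tested genes in edgeR, so a count of 0 of 7 is close to this background. Of the members, 4 were lower and 3 higher with glutamine, with a median log2 fold change of -0.03 against 0.01 over all tested genes. The median absolute log2 fold change of the members was 0.086, against 0.370 over all tested genes. A larger absolute fold change than that of any member was found in 49.0% of the tested genes. The members' standard errors, 0.199 to 0.357 on the log2 scale, were all below the median of 0.363 over all tested genes. The part of this precision in their smaller fold changes was not tested.

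**Figure D1:**
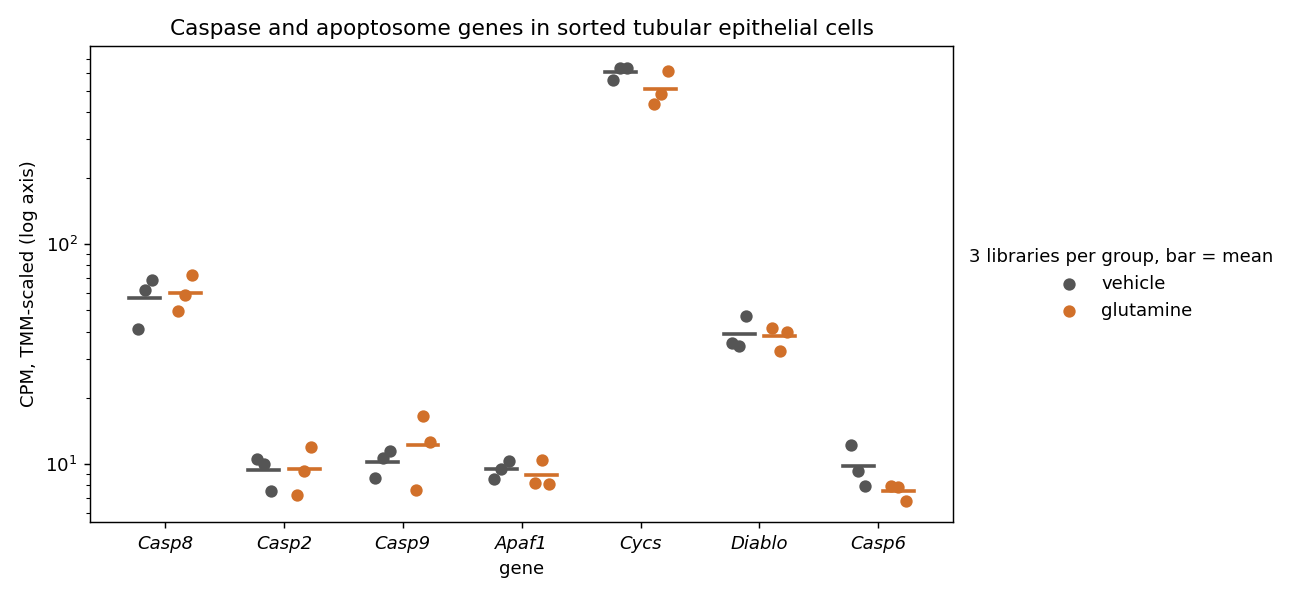
CPM of the 7 members in each TEC library (log axis), with points for the 3 vehicle and 3 glutamine libraries and a bar at each group mean. Cycs lies at 435 to 636 CPM and the groups overlap for every member except Casp6, whose glutamine libraries end at 7.93 CPM just under the lowest vehicle library at 7.95 CPM.

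Casp8, the initiator caspase of death receptors, lies on chromosome 1 from 58795374 to 58847503. In TECs it stood at 41.0, 61.8 and 68.5 CPM in vehicle replicates 3, 4 and 5 and at 49.8, 58.7 and 72.1 CPM in glutamine replicates 1, 2 and 3. The lowest library was a vehicle one and the highest a glutamine one, and the groups overlapped over most of their range. With glutamine against vehicle the log2 fold change was 0.08 (standard error 0.25, 95% interval -0.47 to 0.63, adjusted p = 0.923, edgeR). It was -0.12 without vehicle replicate 3 and -0.08 without glutamine replicate 3. The variation of Casp8 between vehicle libraries, 25.1% of the mean, was larger than the 4.22% that counting alone gives at this depth.

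Casp2, the caspase of the PIDDosome, lies on chromosome 6 from 42264985 to 42282508. It had 10.6, 9.94 and 7.54 CPM with vehicle and 7.21, 9.24 and 11.95 CPM with glutamine, resting on 46 to 111 counts per library. Both the highest and the lowest library were glutamine ones, and the log2 fold change was 0.02 (standard error 0.35, 95% interval -0.75 to 0.79, adjusted p = 0.986, edgeR). It was -0.12 without vehicle replicate 5 and -0.19 without glutamine replicate 3.

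Casp9, the caspase that the apoptosome activates, lies on chromosome 4 from 141793612 to 141815976. It stood at 8.58, 10.7 and 11.4 CPM with vehicle and at 7.57, 16.5 and 12.5 CPM with glutamine. The glutamine libraries spanned the vehicle range on both sides, with glutamine replicate 2, the shallowest library, at the top on 82 counts. Its log2 fold change was 0.24 (standard error 0.36, 95% interval -0.54 to 1.03, adjusted p = 0.804, edgeR), and it was -0.027 without glutamine replicate 2.

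Apaf1, the scaffold of the apoptosome, lies on chromosome 10 from 90989311 to 91082770. It had 8.48, 9.49 and 10.3 CPM in the vehicle libraries and 8.17, 10.4 and 8.11 CPM in the glutamine libraries. The highest of the 6 libraries was 1.29 times the lowest, the smallest such ratio among the members. The variation between vehicle libraries, 9.61% of the mean, was no larger than the 10.2% that counting alone gives. Between glutamine libraries it was 14.9%, against 12.6% from counting. Between groups it differed by -0.09 on the log2 scale (standard error 0.33, 95% interval -0.81 to 0.64, adjusted p = 0.935, edgeR).

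Cycs, which encodes the somatic cytochrome c of the respiratory chain as well as the ligand of Apaf1, lies on chromosome 6 from 50562563 to 50566538. It had 560, 635 and 636 CPM in the vehicle libraries and 435, 484 and 612 CPM in the glutamine libraries. Of the glutamine libraries, 2 of 3 were under every vehicle library and the other was inside the vehicle range. Its log2 fold change was -0.26 (standard error 0.20, 95% interval -0.70 to 0.18, adjusted p = 0.616, edgeR), the smallest standard error among the members. It was -0.15 without glutamine replicate 1 and -0.41 without glutamine replicate 3. Gm10053, which shares sequence with it, stood at 134 CPM with vehicle and 104 CPM with glutamine, and with Cycs, Gm10053, Gm10108 and Gm13772 summed the log2 fold change was -0.28 (adjusted p = 0.581, edgeR). The relation of the scaffold to its ligand, the log2 ratio of Apaf1 to Cycs within a library, averaged -6.00 ± 0.06 in the vehicle libraries and -5.81 ± 0.37 in the glutamine libraries (SD, n = 3). Their difference of 0.19 had p = 0.4 in an exact two-sided permutation test (0.8 adjusted over the 2 ratios run), where 3 libraries against 3 cannot give a p below 0.1. It was 0.031 without glutamine replicate 2 and 0.39 without glutamine replicate 3.

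Diablo, the antagonist of IAP proteins, lies on chromosome 5 from 123509765 to 123524176. It had 35.5, 34.5 and 46.9 CPM with vehicle and 41.3, 32.7 and 39.9 CPM with glutamine, with overlapping groups. The log2 fold change was -0.03 (standard error 0.23, 95% interval -0.54 to 0.47, adjusted p = 0.966, edgeR). It was 0.12 without vehicle replicate 5 and 0.06 without glutamine replicate 2. The neighbour of Diablo, B3gnt4, was at 7.60, 11.1 and 11.5 CPM with vehicle and at 5.17, 0 and 0 CPM with glutamine. When Diablo, B3gnt4 and Gm49027 were summed, the log2 fold change was -0.30 (adjusted p = 0.611, edgeR). The sum also holds the reads that fit B3gnt4 alone, and moving only the shared reads was not tested.

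Casp6, the lamin-cleaving caspase, lies on chromosome 3 from 129901425 to 129914103. It had 12.1, 9.23 and 7.95 CPM with vehicle and 7.93, 7.83 and 6.80 CPM with glutamine, on 39 to 123 counts. It was the only member whose groups did not overlap, by a gap smaller than the spread within the vehicle group. Groups did not overlap for 18.8% of all tested genes, so 1 of 7 members is close to the background. Its log2 fold change was -0.38 (standard error 0.34, 95% interval -1.14 to 0.38, adjusted p = 0.672, edgeR).

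The intervals give the range of fold changes that the TEC libraries leave for each member. For 5 of the 7 members the whole 95% interval of the fold change lay within 2-fold in either direction. The exceptions were Casp6, whose lower bound was 0.454-fold, and Casp9, whose upper bound was 2.05-fold. For Cycs the interval ran from 0.617- to 1.13-fold, for Diablo from 0.690- to 1.38-fold and for Casp8 from 0.720- to 1.55-fold.

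**Figure D2:**
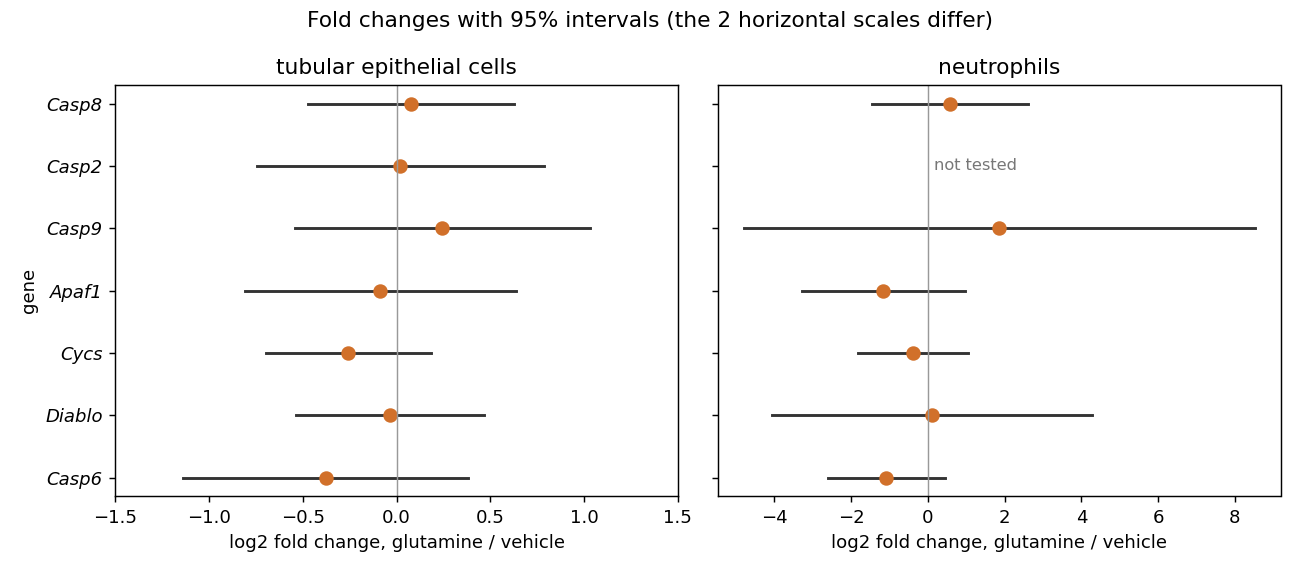
Log2 fold changes of the members, glutamine over vehicle, from edgeR (points) with 95% intervals (lines) in TECs on the left and PMN on the right, on different horizontal scales. Every interval includes 0; standard errors run from 0.20 to 0.36 in TECs and from 0.61 to 2.81 in PMN, where Casp2 was not tested.

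Further genes of the same pathway were read from the same fit: 27 of 29 listed genes had a row, and 25 were tested in TECs. Of the 25, 15 were lower and 10 higher with glutamine, with a median log2 fold change of -0.09, and 0 had an adjusted p below 0.05. At an unadjusted p below 0.05, 2 were lower and 0 higher, against 5.51% of all tested genes lower and 7.23% higher. One was Bid, whose product links caspase-8 to the mitochondria. The vehicle libraries averaged 15.7 ± 6.58 CPM and the glutamine libraries 6.60 ± 2.34 CPM (SD, n = 3), which is -1.24 on the log2 scale (standard error 0.42, unadjusted p = 0.0142, adjusted p = 0.275, edgeR), and the groups overlapped. The other was Ptma, which encodes prothymosin alpha, a protein known to restrain apoptosome assembly. Its level was 1149 ± 48.0 CPM in vehicle libraries and 714 ± 77.7 CPM in glutamine libraries, which is -0.69 on the log2 scale (standard error 0.19, unadjusted p = 0.00353, adjusted p = 0.218, edgeR), with every glutamine library below every vehicle library. Groups did not overlap for 18.8% of all tested genes in TECs, and Ptma was named for its p. Other listed genes also had groups that did not overlap, in both directions.

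By list, the extrinsic arm (8 genes tested, 5 lower and 3 higher) had a median log2 fold change of -0.40, the IAP proteins and their antagonists (5 genes, 2 lower and 3 higher) 0.02, the regulators of the PIDDosome and apoptosome (6 genes, 4 lower and 2 higher) -0.57, and the downstream genes (6 genes, 4 lower and 2 higher) -0.05. The medians of the lists were not tested, and the lists were chosen with earlier results of these data known. Among the regulators of the PIDDosome and apoptosome, the standard errors of single genes ran from 0.19 to 0.93. Apart from Bid and Ptma, no gene of these lists reached an unadjusted p below 0.05 in TECs.

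In PMN, no member passed the test either, 6 of the 7 being tested, and levels of most members varied by severalfold between libraries of 1 group. Of the members, 0 of 6 had an adjusted p below 0.05 in edgeR's quasi-likelihood test, 0 of 6 had an unadjusted p below 0.05, and DESeq2 and limma called 0. Over all 10130 tested genes edgeR called 0.0%, limma 0.0% and DESeq2 2.8% of 11035 genes at an adjusted p below 0.05, and 3.42% reached an unadjusted p below 0.05 in edgeR. The biological coefficient of variation of the fit was 1.397 in PMN and 0.367 in TECs. The members' standard errors, 0.61 to 2.81 on the log2 scale, leave intervals that include at least a 2-fold change for every tested member.

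**Figure D3:**
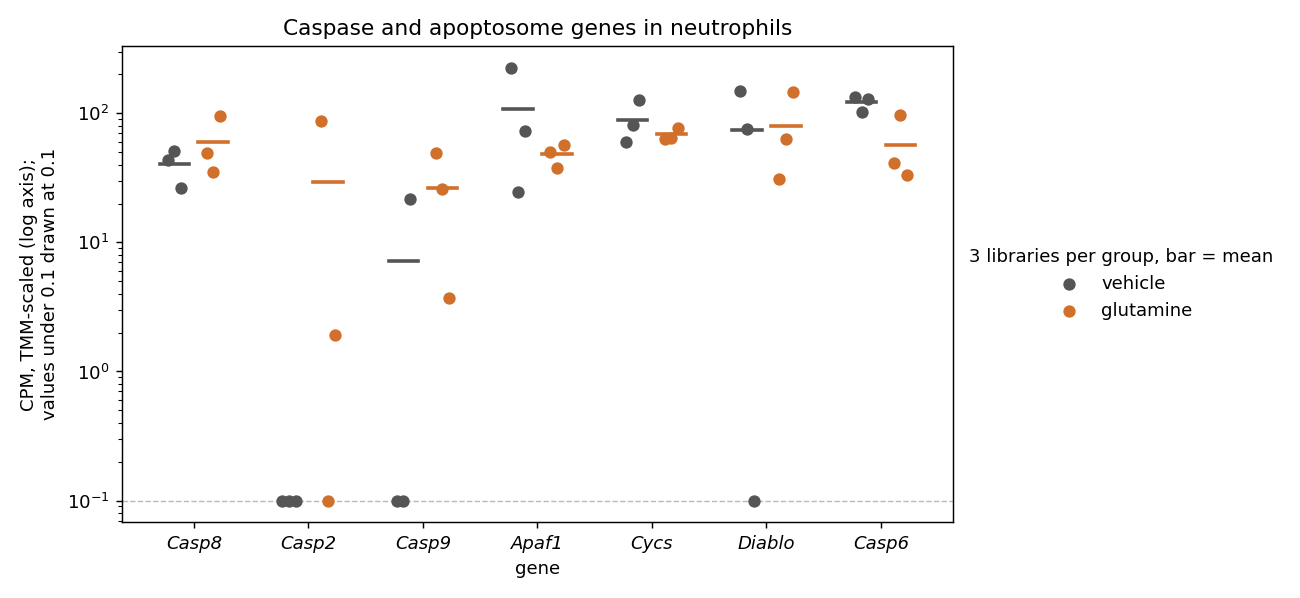
CPM of the 7 members in each PMN library (log axis, values under 0.1 drawn at 0.1), with points for the 3 vehicle and 3 glutamine libraries and a bar at each group mean. Casp2, Casp9 and Diablo each have libraries at or below 1 count beside libraries well above that level.

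Several members were nearly absent from some PMN libraries and abundant in others of the same group. For Casp2 the vehicle replicates 1, 2 and 3 gave 0, 0 and 1 counts, and the glutamine replicates in the same order gave 1647, 0 and 38.5. Only glutamine replicate 1 held it in quantity, at 86.7 CPM, and the gene did not pass the expression filter. A count of 0 allows up to 3 counts, which is 0.137 to 0.158 CPM in these libraries. Casp9 had 0, 0 and 456.5 counts with vehicle and 932.5, 552 and 74.5 counts with glutamine. Its log2 fold change was 1.86 with a standard error of 2.81 and a 95% interval of -4.80 to 8.52 (adjusted p = 0.999957, edgeR). The value depended on which libraries were included. Without vehicle replicate 3 the vehicle group held 0 counts and the unadjusted p was 0.0152 (adjusted p = 0.848, edgeR). Without vehicle replicate 1 the log2 fold change was 1.25 and without vehicle replicate 2 it was 1.26. With glutamine replicates 1, 2 and 3 left out in turn it was 0.97, 1.83 and 2.36.

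For Diablo the vehicle replicates gave 2951, 1656 and 1 counts, and the glutamine replicates 593, 1351 and 2897. The highest and the lowest library were both vehicle ones, and the log2 fold change was 0.10 (standard error 1.76, 95% interval -4.06 to 4.27, adjusted p = 0.999957, edgeR). It was 1.05 without vehicle replicate 1, 0.11 without vehicle replicate 2 and -0.49 without vehicle replicate 3. Such gaps were common in this table. Of 8845 genes that reached 500 counts in some PMN library, 48.4% had another library with at most 3 counts, and of the 7 members 3 did. In TECs the share was 0.187% of 3744 genes, and of the 2 members that reached 500 counts, Cycs and Casp8, 0 did.

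Apaf1 had 226, 24.4 and 72.9 CPM in the vehicle libraries and 50.4, 37.6 and 56.5 CPM in the glutamine libraries. Vehicle replicate 1, the library with Umod, was the highest, and the glutamine libraries lay between the other vehicle values. Across all libraries the log2 fold change was -1.16 (standard error 0.90, 95% interval -3.29 to 0.97, adjusted p = 0.999957, edgeR), and it was -0.05 without vehicle replicate 1 and -1.64 without vehicle replicate 2, the library with Kdr. The log2 ratio of Apaf1 to Cycs changed sign without vehicle replicate 1. Glutamine minus vehicle was -0.32 in all libraries (exact two-sided permutation test, p = 1.0). It was 0.74 without vehicle replicate 1 (exact p = 0.1, the smallest that this test can give with 1 library left out). The part that RNA of other cells had in these values was not tested, and in bulk samples fewer cells of a type and less RNA per cell cannot be told apart.

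Casp6 had the smallest p of the members in PMN and did not pass the test. It had 133, 102 and 129 CPM with vehicle and 41.2, 97.6 and 33.0 CPM with glutamine, with every glutamine library below every vehicle library. Glutamine replicate 2 lay close under the vehicle libraries, and the other 2 were well below it. Groups did not overlap for 10.5% of all tested genes, against 1 of the 6 tested members. Glutamine against vehicle gave a log2 fold change of -1.09 (standard error 0.64, 95% interval -2.61 to 0.44, unadjusted p = 0.136, adjusted p = 0.999957, edgeR), and it was -1.03 without vehicle replicate 1 and -1.21 without vehicle replicate 2. With glutamine replicates 1, 2 and 3 left out in turn it was -0.91, -1.76 and -0.80. The unadjusted p was then 0.256, 0.0521 and 0.285, and the adjusted p was 0.952 or above (edgeR). Ptprc differed between the groups in the opposite direction, at 317 to 569 CPM with vehicle and 754 to 1150 CPM with glutamine, and its part in the Casp6 values was not tested.

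Casp8 and Cycs were detected in every PMN library. Casp8 had 43.7, 50.9 and 26.5 CPM with vehicle and 49.0, 34.9 and 95.6 CPM with glutamine, with overlapping groups and glutamine replicate 3 above all others. Its log2 fold change was 0.57 (standard error 0.86, 95% interval -1.46 to 2.60, adjusted p = 0.999957, edgeR), and 0.05 without glutamine replicate 3. It was 0.59 without vehicle replicate 1 and 0.76 without vehicle replicate 2. Cycs had 59.9, 81.8 and 126 CPM with vehicle and 63.7, 64.9 and 77.0 CPM with glutamine. The glutamine libraries lay inside the vehicle range, and the log2 fold change was -0.38 (standard error 0.61, 95% interval -1.82 to 1.06, adjusted p = 0.999957, edgeR). It was -0.63, -0.45 and -0.06 when vehicle replicates 1, 2 and 3 were left out in turn.

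The PMN table gives 2 columns for each library, which were averaged. For the members other than Cycs the columns differed by at most 2.83%, but for Cycs they differed by up to 20.6% of the mean. Cycs was higher in the second column in 6 of 6 libraries and Gm10053 was lower in it in 6 of 6 libraries. Gm10053 stood at 105 CPM with vehicle and 68.8 CPM with glutamine in PMN, as high as Cycs itself at 89.3 and 68.5 CPM. With Cycs, Gm10053, Gm10108 and Gm13772 summed, the log2 fold change was -0.50 (adjusted p = 0.999925, edgeR). The level of Cycs in PMN is therefore less certain than its counts alone would give.

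Of the 29 listed pathway genes, 22 were tested in PMN, 14 lower and 8 higher with glutamine, with a median log2 fold change of -0.10 and 0 with an adjusted p below 0.05. At an unadjusted p below 0.05, 0 were lower and 2 higher, against 1.37% of all tested genes lower and 2.04% higher. They were Cflar, an inhibitor of caspase-8 activation, and Birc3, an IAP family ubiquitin ligase. Cflar averaged 153 ± 25.7 CPM in vehicle libraries and 377 ± 190 CPM in glutamine libraries (SD, n = 3), which is 1.30 on the log2 scale (standard error 0.44, unadjusted p = 0.0215, adjusted p = 0.999957, edgeR). For Birc3 the vehicle mean was 279 ± 63.3 CPM and the glutamine mean 590 ± 273 CPM, which is 1.08 on the log2 scale (standard error 0.40, unadjusted p = 0.0300, adjusted p = 0.999957, edgeR). Groups did not overlap for 10.5% of all tested genes in PMN, and these 2 genes were named for their p. For both, every glutamine library was above every vehicle library. The same held for Ptprc, at 317 to 569 CPM with vehicle and 754 to 1150 CPM with glutamine. Its part in the Cflar and Birc3 values was not tested. Values without the vehicle libraries that held Umod or Kdr are not given for these 2 genes. In TECs the log2 fold change was -0.41 for Cflar and -0.09 for Birc3, with adjusted p-values of 0.519 and 0.916 (edgeR), and the difference between the cell types was not tested.

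Levels were compared between members only per length, as CPM per kb of annotated exon. In TECs, Cycs led at a median of 172 CPM per kb over the 6 libraries, 8.27 times Casp8 at 20.8 CPM per kb, which was 3.40 times Diablo at 6.12 CPM per kb. Diablo in turn was 2.88 times Casp9, and the ranges of these first 4 genes in the order did not overlap between neighbours. Casp9 (2.12 CPM per kb), Casp6 (1.42), Casp2 (1.36) and Apaf1 (0.996) followed with ranges that overlapped from each to the next. The scaffold of the apoptosome thus had the lowest median of the 7 transcripts per length, in a range that overlapped that of Casp2, and its ligand had the highest.

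In PMN the order by median was Cycs (20.8 CPM per kb), Casp6 (17.9), Casp8 (16.0), Diablo (11.3), Apaf1 (5.93), Casp9 (2.44) and Casp2 (0.00337). Every neighbouring pair in this order overlapped in range, and differences between neighbours were not tested. The medians pool both groups. Mean CPM per kb with vehicle and with glutamine was 26.2 and 20.1 for Cycs, 21.8 and 10.3 for Casp6, and 13.9 and 20.7 for Casp8. The order of the means thus differed between the groups. The tables were counted and scaled separately, and the levels in TECs and PMN are given side by side without a test. Cycs stood at 128 to 187 CPM per kb in TECs and 17.6 to 37.1 in PMN, and Casp6 at 1.22 to 2.17 in TECs and 5.91 to 23.9 in PMN.

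**Figure D4:**
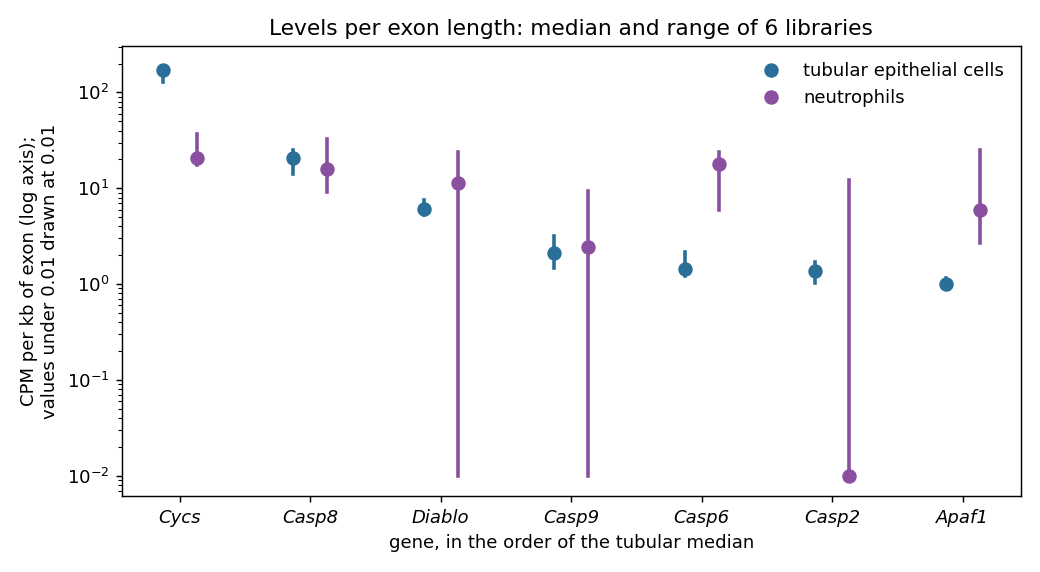
CPM per kb of exon (log axis) of the 7 members in TECs and PMN, as the median (point) and the range (line) of 6 libraries, with values under 0.01 drawn at 0.01 and genes in the order of the TEC median. Cycs has the highest median in both cell types, though in PMN its range overlaps those of other members, and the ranges are wide for Diablo, Casp9 and Casp2 in PMN.

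Within groups, the coefficient of variation of the members was larger in PMN than in TECs except for Casp6 with vehicle and Cycs with glutamine. In TECs the coefficient of variation of the members was 7.20 to 25.1% with vehicle and 8.34 to 36.6% with glutamine, against medians of 27.2% and 27.0% over all tested genes. In PMN it was 14.0 to 173% with vehicle and 10.7 to 168% with glutamine, against medians of 81.5% and 77.5%. Counting alone gave at most 7.37% in the PMN groups whose libraries all held more than 3 counts. The spread in PMN was above counting error for Casp6, Casp8, Cycs and Apaf1 in both groups. Counting error covers the sampling of reads only, so this excess does not tell where the spread comes from.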

How the data were processed

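Poly(A) RNA of sorted TECs and of PMN was read as single ends of 50 bases, per the labels. The submitters' processing notes name Trim Galore 0.6.4, Salmon 1.0.0 and build mm10; the annotation is not given in the sources used here. Estimated counts without normalization were deposited by the authors, 1 row for each gene symbol. The PMN table, deposited by the authors with other number formatting, is of the same kind: in 3.2% of its cells extra points stood between digits and 0.39% were dates. Only the last point in a cell was taken as a decimal mark, dates were converted to the numbers they came from, and the mean of the 2 columns of a library was 1 replicate. Its values were then treated as estimated counts.

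Counts were rounded and fitted per table over all genes with edgeR 4.0.16 (quasi-likelihood test, TMM, filterByExpr; R 4.3.3) with Benjamini-Hochberg adjustment and a threshold of 0.05. CPM are TMM-scaled. The standard error is the log2 fold change over the root of F. A log2 ratio added a pseudocount of 1 to both counts. DESeq2 1.42.0, limma 3.58.1, other scalings and filters, and fits without each library were alternatives. Gene models and sequences came from GENCODE M21 on GRCm38. Every member is named; other pathway genes are named at an unadjusted p below 0.05. Members and lists were chosen with earlier results of these data known.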

Additional observations from a re-analysis of the deposited data

How the results depend on the processing

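The number of members with an adjusted p below 0.05 was 0 in both cell types under every alternative run: DESeq2, limma, RLE scaling, TMM without predicted genes, no expression filter, a minimum of 10 counts, an adjusted p below 0.1, each PMN column alone and each library left out. Counts over all genes moved more. In TECs DESeq2 called 246 genes and edgeR without an expression filter 425, and leaving out 1 library gave 0 to 36 genes (36 without glutamine replicate 2 and 4 without vehicle replicate 5). In PMN DESeq2 called 309 genes.

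The sign of some fold changes depended on the setting. In TECs the log2 fold change of Casp2 was -0.0073 without an expression filter and -0.19 to 0.19 with 1 library left out. With 1 library left out it was -0.12 to 0.22 for Casp8 and -0.027 to 0.50 for Casp9. Diablo was at 0.017 with TMM factors from genes other than predicted, Rik and sensory receptor genes, and at -0.12 to 0.12 with 1 library left out. In PMN, Diablo ranged from -0.64 to 1.05 and the ratio of Apaf1 to Cycs from -1.08 to 0.74 with 1 library left out. With limma the log2 fold changes in PMN were 2.86 for Diablo and 6.18 for Casp9, neither past the threshold. The cause was not tested. The sign did not change for Casp6, Apaf1 and Cycs in either cell type, though some values came near 0. With 1 library left out, Casp6 was at -0.51 to -0.20 in TECs and -1.76 to -0.80 in PMN, Apaf1 at -0.21 to -0.023 and -1.64 to -0.053, and Cycs at -0.41 to -0.15 and -0.63 to -0.056. The sums of Cycs and of Diablo with some of the genes that share their sequence were chosen after seeing the data.

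No paired analysis was possible because replicate number 3 is the 1 number found in both TEC groups, and numbers in PMN merely name libraries. The 4 planned ratios with Xiap were not run. Casp2, Casp6, Casp9 and Apaf1 rest on 39 to 123 counts per library in TECs, where counting alone gives a variation of 9.80 to 13.8% of the mean.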
